A study of Schizosaccharomyces pombe with 4 samples.

Results

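The regions described here are chromosome-internal stretches of the fission yeast genome at which a tagged Taz1 protein was recovered above a fixed level while untagged Taz1 and Rif1 were not. They are 250 of 38920 internal tiles (0.642%), and they fall into 89 runs of neighbouring tiles. A tile is 1 probe of 60 bases on an array whose probes lie 300 bp apart, alternately on both strands. The value of a tile, X, is the log2 ratio of immunoprecipitated over whole-cell extract DNA after subtraction of the array median, smoothed by a running median of 3 tiles. A tile was taken where X was at least 0.8 on the Taz1_GFP array, which is 1.74-fold, and below 0.585 on both the Taz1_wt and the Rif1_Myc array, which is 1.5-fold. Chromosome ends, centromeres and probes whose names end in m lay outside the rule. The tiles were thus chosen by their X on Taz1_GFP, Taz1_wt and Rif1_Myc, and these values are given as a description. Taz1_L593F had no place in the rule.

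Chromatin immunoprecipitation and tiling arrays (ChIP-chip) were used on Schizosaccharomyces pombe, with 4 arrays and 1 array for each group. All cultures grew exponentially in rich medium (YEA) at 30 °C and were fixed in 3% paraformaldehyde. For Taz1_wt, wild-type chromatin was precipitated with an antibody to recombinant Taz1, and for Taz1_L593F that antibody was applied to the allele taz1l593F (mut5). For Taz1_GFP a GFP antibody was applied to taz1GFP cells, and for Rif1_Myc a Myc antibody to Rif1Myc cells. Cy5 marked the precipitated DNA and Cy3 the whole-cell extract of the same strain on each array, without a dye swap. With 1 array in a group there was no replicate error and no test between groups, and slide and group cannot be told apart. No untagged strain precipitated with the GFP antibody was analysed here. The tag, the antibody and the strain therefore all differ between Taz1_GFP and Taz1_wt.

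Taz1 is the telomere protein of fission yeast that binds double-stranded telomere repeats, and it belongs to the shelterin complex that protects chromosome ends. It is also known to act at some places inside the chromosomes, where it holds replication origins late and helps to form islands of heterochromatin. Rif1 joins telomeres through Taz1 and delays the firing of many origins, and fission yeast origins lie mostly in A/T-rich stretches between genes.

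Positions of tiles are those in the probe names, and no genome build is named for them in the sources used here. Gene names, annotation and base composition come from aligning the tiles to assembly ASM294v3 by GC content. Sequences below were read from RefSeq's ASM294v3 at the positions of its own annotation. They show the 250 bases before the annotated start of 5 genes next to tall runs with no shared Taz1_GFP stretch within 1 kb. The middle of the highest tile lay 131 bp from the start of tas3, 107 from scr1, 687 from cut3, 65 from rxt2 and 671 from ski7. The windows were set by the gene start and not by the run. Those of cut3, ski7 and scr1 lie mostly outside the run. Each is written 5′ to 3′ toward the gene, and capitals mark its longest unbroken stretch of A and T.
tas3 (chrII:1516180-1516429, minus strand): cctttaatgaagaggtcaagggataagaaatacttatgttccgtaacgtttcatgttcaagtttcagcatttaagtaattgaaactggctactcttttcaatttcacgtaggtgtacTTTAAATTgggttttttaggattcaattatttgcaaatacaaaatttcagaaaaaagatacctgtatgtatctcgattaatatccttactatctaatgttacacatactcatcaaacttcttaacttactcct
scr1 (chrII:1751843-1752092, plus strand): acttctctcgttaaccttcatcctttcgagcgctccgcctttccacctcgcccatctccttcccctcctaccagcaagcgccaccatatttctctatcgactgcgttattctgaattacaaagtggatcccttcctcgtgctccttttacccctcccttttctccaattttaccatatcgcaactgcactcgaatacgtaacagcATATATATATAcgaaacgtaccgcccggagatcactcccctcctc
cut3 (chrII:1006524-1006773, minus strand): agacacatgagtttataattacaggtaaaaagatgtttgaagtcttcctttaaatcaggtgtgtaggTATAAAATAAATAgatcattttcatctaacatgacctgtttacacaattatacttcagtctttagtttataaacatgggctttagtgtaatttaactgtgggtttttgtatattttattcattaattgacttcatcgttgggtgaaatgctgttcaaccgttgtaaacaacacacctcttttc
rxt2 (chrII:453046-453295, minus strand): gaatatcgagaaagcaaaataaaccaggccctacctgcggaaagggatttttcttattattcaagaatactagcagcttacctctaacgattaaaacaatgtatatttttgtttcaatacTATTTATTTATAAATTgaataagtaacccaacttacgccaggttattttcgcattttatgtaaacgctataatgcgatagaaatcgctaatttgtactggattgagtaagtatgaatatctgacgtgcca
ski7 (chrI:5322131-5322380, plus strand): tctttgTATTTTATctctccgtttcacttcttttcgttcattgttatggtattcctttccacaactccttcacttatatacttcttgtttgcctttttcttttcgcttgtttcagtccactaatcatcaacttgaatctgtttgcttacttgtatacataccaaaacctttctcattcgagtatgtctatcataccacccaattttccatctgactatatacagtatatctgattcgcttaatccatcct
The longest A/T stretch was 16 bases before rxt2, 13 before cut3, 11 before scr1 and 8 before tas3 and ski7. GC content was 49.2% before scr1 and between 30.4% and 34.4% before the other 4 genes. Over 3290 protein-coding genes with a free upstream window, the median GC content was 32% and the median longest A/T stretch was 13 bases. For the 37 such genes whose start was nearest to such a run, the medians were 34.4% and 11 bases. These upstream windows were thus no richer in A and T than those of the other genes.

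The rule itself set Taz1_GFP high at the 250 tiles and capped Taz1_wt and Rif1_Myc, so their levels are no result. On Taz1_L593F, which was free of the rule, the median lay near that of all internal tiles. On Taz1_GFP, X ran from 0.80 to 2.78 with a median of 0.96, against a median of −0.011 over all internal tiles. X on Taz1_wt ran from −0.36 to 0.58 with a median of 0.31, against −0.0069 over all internal tiles. On Rif1_Myc it ran from −0.66 to 0.58 with a median of 0.20, against −0.0049. The Taz1_L593F values ran from −0.63 to 0.53 with a median of 0.013, against −0.0030. Of the 535 internal tiles that reached 0.8 on Taz1_GFP (1.37% of all), the ceilings left 250, and 175 others were above the ceiling on Taz1_wt and below it on Rif1_Myc. These 175 are called the tiles with both Taz1 antibodies, and the remaining 110 were above the Rif1_Myc ceiling.

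The word "only" holds for the ceilings and not for the signal as such. X on Taz1_wt was above 0 at 229 of the 250 tiles (91.6%), and 48.6% of all internal tiles were above 0 on that array. It was at least 0.3, which is 1.23-fold, at 128 of them (51.2%), beside 8.26% of all internal tiles, which include tiles above the ceiling. Nothing is read from these shares, since Taz1_wt chose the tiles. On Rif1_Myc, 84 tiles (33.6%) reached 0.3, beside 21.8% of all internal tiles. The ceiling itself was reached by 1.15% of internal tiles on Taz1_wt and 7.81% on Rif1_Myc, and by no tile described here. Neighbouring tiles share DNA fragments of 500 to 1000 bp and enter each other's running median, so the intervals given for shares of tiles or runs (95%, Clopper-Pearson) cover counting error only and are too narrow.

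**Figure D1:**
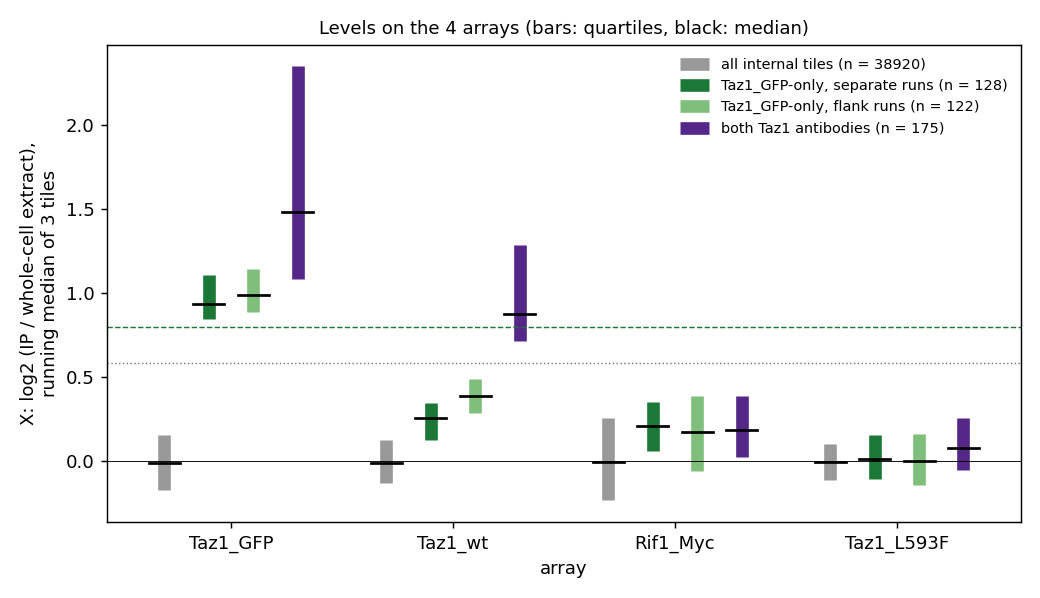
X (log2 ratio of precipitated over whole-cell extract DNA, running median of 3 tiles) on the 4 arrays for all internal tiles, the 128 Taz1_GFP-only tiles of separate runs, the 122 of flank runs and the 175 tiles with both Taz1 antibodies. Bars span the quartiles, black lines are medians, the dashed line is the Taz1_GFP threshold of 0.8 and the dotted line the ceiling of 0.585. The Taz1_GFP-only tiles have medians of 0.26 and 0.39 on Taz1_wt and lie around 0 on Taz1_L593F.

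The array of the mutant protein is the independent measurement at these tiles. L593F is a substitution in Taz1, and the Taz1_L593F array was made with the antibody of Taz1_wt. X on Taz1_L593F was above 0 at 136 of 250 tiles (54.4%), against 49.2% of all internal tiles. It reached 0.3 at 17 tiles (6.80%, interval 4.01 to 10.7), against 2.78% of all internal tiles. None reached 0.585, as 0.0206% of all internal tiles did. X on Taz1_L593F was below X on Taz1_wt at 226 of 250 tiles (90.4%), against 51.3% of all internal tiles. The median difference, Taz1_L593F minus Taz1_wt, was −0.27, against −0.0072 over all internal tiles. Taz1_wt was among the arrays that chose the tiles, so neither comparison with it is independent of the rule. The spread of X over internal tiles, as a robust standard deviation, was 0.16 on Taz1_L593F and 0.19 on Taz1_wt.

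Taz1_L593F was not higher where Taz1_GFP was higher. At the 146 tiles with X between 0.8 and 1 on Taz1_GFP, the median on Taz1_L593F was 0.044. It was 0.0097 at the 57 tiles between 1 and 1.2, and −0.093 at the 47 tiles of 1.2 and more. The same 3 bands had medians of 0.30, 0.37 and 0.32 on Taz1_wt and of 0.21, 0.19 and 0.17 on Rif1_Myc. The last 6 medians are limited by the ceilings, and only Taz1_L593F was free of the rule.

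The 2 channels moved differently at the tiles. On Taz1_GFP the median red signal (precipitated DNA) lay 0.88 above the array median on the log2 scale and the green signal (whole-cell extract) 0.26 below it. Green was also low at these tiles on the other arrays, at −0.20 on Taz1_wt, −0.40 on Rif1_Myc and −0.14 on Taz1_L593F. Red was at 0.13, −0.20 and −0.12 on those arrays. On Taz1_wt this differed between tiles, with red at 0.26 and green at −0.11 at the 122 tiles beside shared stretches, and red at −0.029 and green at −0.37 at the other 128. At those 128 the Taz1_wt ratio thus came with a low green and no raised red signal. The positive median on Rif1_Myc came with a green signal lower than the red. The part of low whole-cell extract signal in the selection was not tested.

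Tiles on both sides of each threshold had the following values. The 54 tiles within 0.05 above the Taz1_GFP threshold had a median X of 0.31 on Taz1_wt and 0.11 on Taz1_L593F. For the 49 tiles that met the ceilings and lay within 0.05 below it, these were 0.28 and 0.043. The 18 tiles within 0.05 below the Taz1_wt ceiling had a median of 0.95 on Taz1_GFP, and the 10 tiles just above that ceiling had 1.38. At the Rif1_Myc ceiling, the 7 tiles just inside had a median of 0.93 on Taz1_GFP and the 9 just outside 0.86.

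The runs were of 2 kinds. In 45 runs with 122 tiles, another internal tile of 0.8 or more on Taz1_GFP that failed a ceiling lay within 1 kb, so that these flank runs lay beside stretches shared with Taz1_wt or Rif1_Myc. The other 44 runs with 128 tiles had no such tile within 1 kb and are called separate runs. This division was made after the values were seen. Of the 89 runs, 27 held 1 tile, 62 held more, 21 held at least 4 and the longest held 11. Of the 27 runs of 1 tile, 24 were flank runs. The separate runs lay a median of 42.9 kb from the nearest Taz1_GFP tile that failed a ceiling, although 12 of them had one within 10 kb. They may lie nearer to other Taz1_GFP-only runs, as the run at scr1 does. On Taz1_wt the median X was 0.39 at flank tiles and 0.26 at separate tiles, a difference that the division itself favours, and on Taz1_L593F it was at 0.0037 and 0.017.

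**Figure D2:**
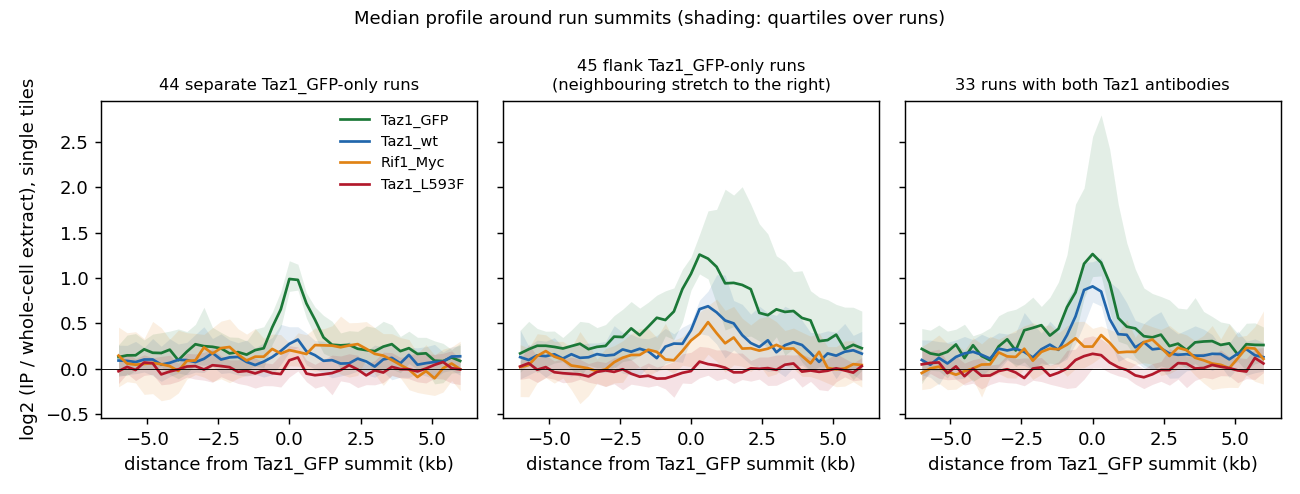
Median log2 ratio of single tiles on the 4 arrays by distance in kb from the Taz1_GFP summit, for the 44 separate runs, the 45 flank runs (turned so that the neighbouring Taz1_GFP stretch is on the right) and the 33 runs with both Taz1 antibodies. Shading spans the quartiles over runs. Taz1_GFP falls from 0.99 at the summit of separate runs to 0.23 at 900 bp on the left, with Taz1_wt at 0.27 at the summit.

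The profile around the summits is a description, since the division and the orientation fix much of its shape. At separate runs, single tiles at the summit had a median of 0.99 on Taz1_GFP, 0.27 on Taz1_wt, 0.21 on Rif1_Myc and 0.094 on Taz1_L593F. At 900 bp to the left and right, Taz1_GFP was at 0.23 and 0.54, where the summit is the leftmost tile of the highest X and runs extend to its right by that choice. Around flank summits, turned so that the neighbouring stretch lies on one side, Taz1_GFP toward that stretch was at 1.12 after 900 bp and 0.92 after 1800 bp, and at 0.54 and 0.37 at these distances on the other side. Taz1_wt was at 0.62 at 900 bp toward the neighbour. In the 33 runs with both Taz1 antibodies the summit medians were 1.26 on Taz1_GFP, 0.91 on Taz1_wt and 0.17 on Taz1_L593F.

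The 15 tallest runs reached summits between 1.26 and 2.78 on Taz1_GFP, and 9 of them were flank runs. The tallest lay between duf8901 and SPAC806.06C on chromosome I (243300 to 244799), where 5 tiles averaged 1.63 on Taz1_GFP, 0.32 on Taz1_wt, −0.18 on Rif1_Myc and 0.020 on Taz1_L593F. A single tile in the coding sequence of iec1, a subunit gene of the INO80 chromatin remodelling complex, had 2.68 on Taz1_GFP, 0.38 on Taz1_wt, 0.098 on Rif1_Myc and 0.013 on Taz1_L593F. Both lay beside peaks that reached 2.97 and 3.44 on Taz1_GFP and were above the ceiling on Taz1_wt. Further flank runs lay at SPAC806.06C (summits 2.16 and 1.31), at prl46 (1.80), between zfs1 and SPBPB7E8.01 (1.70), between arv1 and sdh2 (1.48), between cup1 and eno101 (1.35) and at SPAC1093.07 (1.26). Among these, zfs1 encodes a zinc-finger protein of mRNA decay, sdh2 a succinate dehydrogenase subunit and eno101 enolase.

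The highest separate run lay between tas3 and apc15 on chromosome II (1516500 to 1518599), with 7 tiles and a summit of 1.74. tas3 encodes a subunit of the RITS complex of RNA-directed silencing and apc15 a subunit of the anaphase-promoting complex, and the genes diverge over 516 bp. The tiles averaged 1.38 ± 0.36 (SD over the 7 tiles) on Taz1_GFP, 0.20 ± 0.044 on Taz1_wt, 0.24 ± 0.10 on Rif1_Myc and −0.11 ± 0.11 on Taz1_L593F. The ceilings held Taz1_wt and Rif1_Myc below 0.585 at these tiles. From 1200 bp left of the summit to 1500 bp right of it, Taz1_GFP ran through 0.64, 0.66, 1.02, 1.29, 1.74, 1.74, 1.63, 1.45, 0.82 and 0.55. Over the same tiles Taz1_wt stayed between 0.03 and 0.29. Outside the run, at 2700 bp left of the summit, Rif1_Myc was at 1.06 and Taz1_wt at 0.63.

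The second separate run began in the 5′ UTR of scr1 (1753800 to 1755299), the gene of a transcriptional repressor in carbon catabolite repression. Its 5 tiles averaged 1.60 ± 0.027 on Taz1_GFP, 0.20 ± 0.12 on Taz1_wt, 0.19 ± 0.075 on Rif1_Myc and −0.15 ± 0.21 on Taz1_L593F. After smoothing, X on Taz1_GFP was level over the 5 tiles, at 0.71 on the tile before the run and 0.47 on the tile after it. A running median repeats values between neighbouring tiles. The level top, its edges and the SD of 0.027 thus describe smoothed values and not single tiles. Taz1_L593F was low on the upstream side, at −0.63 on the tile before the run, −0.51 on the first tile of the run and −0.14 on the second.

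Between cut3, which encodes a condensin subunit, and the divergent erv2, a thiol oxidase gene, 5 tiles (1007700 to 1009499) averaged 1.31 ± 0.24 on Taz1_GFP. They were at 0.15 ± 0.16 on Taz1_wt, −0.15 ± 0.21 on Rif1_Myc and −0.13 ± 0.20 on Taz1_L593F. The SD values given for runs are spreads over neighbouring tiles that share fragments and smoothing, and are not replicate errors. Between rxt2, a subunit gene of a histone deacetylase complex, and clr4, the histone H3 lysine 9 methyltransferase of heterochromatin, 4 tiles (453600 to 454799) averaged 1.30 ± 0.17 on Taz1_GFP. There Taz1_wt was at 0.23 ± 0.076, Rif1_Myc at −0.22 ± 0.038 and Taz1_L593F at 0.023 ± 0.081. Its summit lay 65 bp from the start of rxt2 and 886 bp from the 3′ end of clr4.

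Between hsp9, a small heat shock protein gene, and ski7, an exosome cofactor gene, 2 tiles on chromosome I (5317200 to 5317799) had 1.29 on Taz1_GFP, 0.087 on Taz1_wt, 0.24 on Rif1_Myc and −0.36 on Taz1_L593F. The run in the 3′ UTR of SPAC30C2.08 (4642800 to 4643999) averaged 1.26 ± 0.21 on Taz1_GFP and 0.23 ± 0.21 on Taz1_L593F, and lay 3.60 kb from the peak at prl46 and iec1. Mean X on Taz1_L593F was between −0.36 and 0.23 in the 6 separate runs among the 15 tallest, and below 0 in 4 of them. It was above 0 in 27 of all 44 separate runs, and 49.2% of all internal tiles were above 0. Nothing is read from the 4 of 6. Mean X on Taz1_L593F was below the mean on Taz1_wt in 13 of the 15 and in 83 of all 89 runs, where Taz1_wt had chosen the tiles. The exceptions among the 15 were SPAC30C2.08 and the second run at SPAC806.06C.

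**Figure D3:**
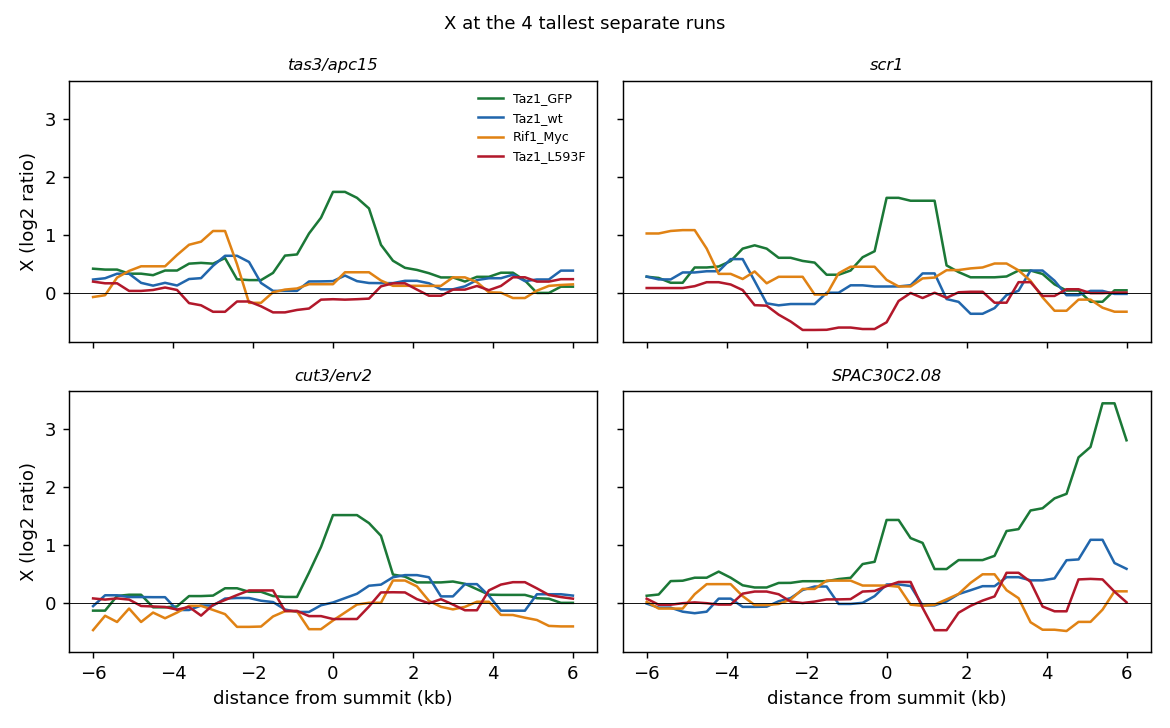
X (running median of 3 tiles, log2) on the 4 arrays by distance in kb from the Taz1_GFP summit at the 4 tallest separate runs. Taz1_GFP reaches 1.74 between tas3 and apc15, 1.63 at scr1, 1.52 between cut3 and erv2 and 1.43 at SPAC30C2.08, where the iec1 peak rises at the right edge.

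Most of the longest runs were flank runs. Runs of 11 tiles lay at cog8 (1492500 to 1495799), a gene of Golgi trafficking, with means of 0.96 on Taz1_GFP and 0.44 on Taz1_wt, and between zfs1 and SPBPB7E8.01 (3486300 to 3489899), with 1.17 and 0.37. Runs of 8 tiles lay at SPAC806.06C, at elp6, an Elongator subunit gene, and between erm1 and rpa12, an RNA polymerase I subunit gene. Of these 5 runs the one between erm1 and rpa12 (chromosome III, 1037400 to 1039799) was separate, with means of 0.93 on Taz1_GFP, 0.14 on Taz1_wt, 0.15 on Rif1_Myc and −0.052 on Taz1_L593F.

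Run means on Taz1_L593F ranged from −0.63 to 0.44 with a median of 0.020, and 5 of 89 runs reached 0.3. These 5 were the pair of glutamine tRNA genes SPBTRNAGLN.02 and SPBTRNAGLN.03 (0.44), wsc1, a cell wall sensor gene (0.42), ste11, the transcription factor gene of sexual differentiation (0.36), svf1 (0.34) and the interval between sen34, a tRNA splicing endonuclease gene, and ppm2 (0.32). Means on Taz1_wt at the same runs were 0.56, 0.31, 0.55, 0.34 and 0.46, so Taz1_L593F exceeded Taz1_wt only at wsc1 among them. The 5 lowest runs on Taz1_L593F lay beside adg1 (−0.63), at ssn6, a corepressor gene (−0.55), beside wee1, the mitotic inhibitor kinase gene (−0.53), beside the glutamate tRNA gene SPBTRNAGLU.08 (−0.52) and between SPAC17A2.10C and SPAC17A2.11 (−0.42). All but the run beside wee1 were single tiles in flank runs.

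On Taz1_wt the run means ranged from −0.23 to 0.58. They were highest at cdc2, the cyclin-dependent kinase gene (0.58), at the glutamine tRNA pair (0.56) and between mex67, an mRNA export gene, and SPBC1921.04C (0.55), all below the ceiling by construction. The lowest were at psy2, a protein phosphatase 4 subunit gene (−0.23), beside gsf2, a flocculin gene (−0.19), and at pil1, an eisosome gene (−0.13). On Taz1_GFP these 3 runs averaged 0.80, 0.93 and 0.84. Run means on Rif1_Myc were highest at ppk1, a protein kinase gene (0.58), ste11 (0.58) and SPBC365.16 (0.51), each a single tile.

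**Figure D4:**
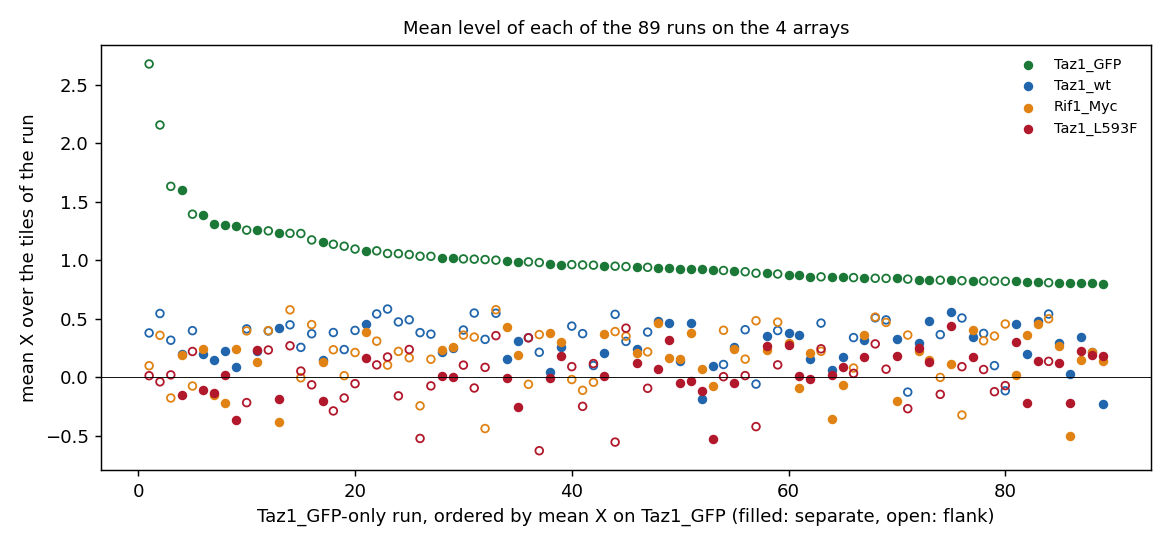
Mean X over the tiles of each of the 89 runs on the 4 arrays, ordered by the mean on Taz1_GFP, with filled points for separate and open points for flank runs. The Taz1_GFP means run from 2.68 down to 0.80, and the Taz1_L593F means lie on both sides of 0 along the whole order.

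Annotation was not used by the rule. The summit tile lay in a stretch between genes without any transcript at 18 of 89 runs, in a long non-coding RNA alone at 22, in a UTR at 34, in coding sequence at 14 and in a structured RNA gene at 1. The first 3 classes together held 74 of 89 summits (83.1%, interval 73.7 to 90.2). Counted by tiles, they held 181 of 250 (72.4%), against 37.2% of all internal tiles. Coding exons made up 25.6% of the 250 tiles and 58.7% of all internal tiles. The share of these 3 classes was 42 of 44 (95.5%) at separate runs, 32 of 45 (71.1%) at flank runs and 30 of 33 (90.9%) at the runs with both Taz1 antibodies. Of the 34 summits in a UTR, 19 were in a 5′ UTR, 14 in a 3′ UTR and 1 in both.

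**Figure D5:**
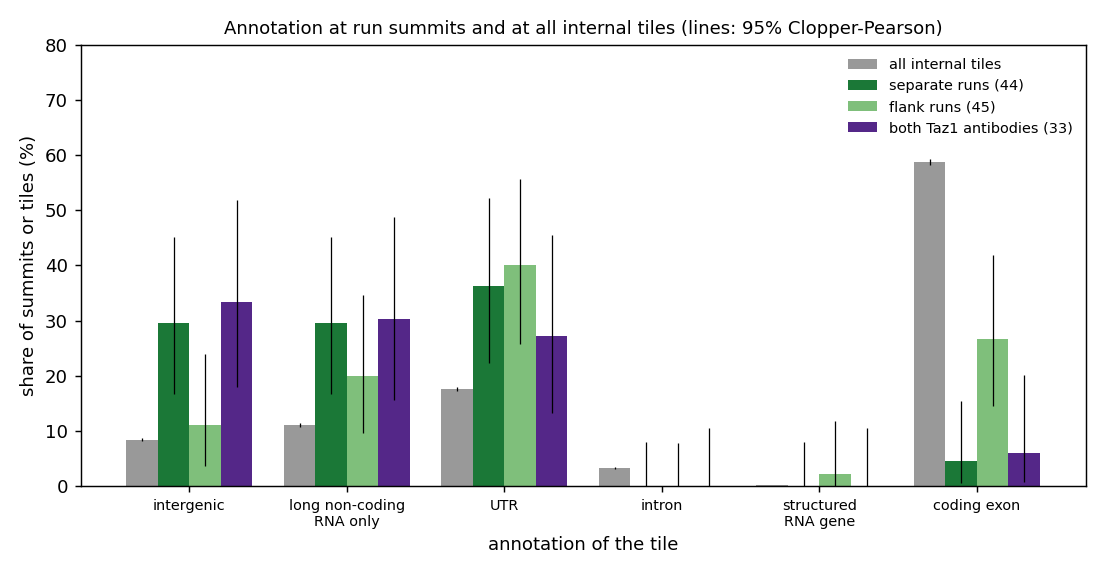
Share in percent of run summits in each annotation class for the 44 separate runs, the 45 flank runs and the 33 runs with both Taz1 antibodies, beside the share of all 38920 internal tiles, with 95% Clopper-Pearson intervals as lines. Coding exons hold 58.7% of all internal tiles and 2 of 44 summits of separate runs.

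Leaving long non-coding RNAs aside, 40 of 89 summits (44.9%) lay between genes, against 19.9% of all internal tiles. The flanking genes diverged at 23 of these 40 intervals (57.5%), pointed the same way at 16 and converged at 1, and the shares over all internal tiles between genes were 48.0%, 46.5% and 5.51%. The intervals had a median length of 1936.5 bp, against 1012 bp for all internal tiles between genes. Longer intervals hold more tiles, and the comparison counts tiles. A gene start was nearer than a gene end at 60 of 89 summits (67.4%) and at 33 of 44 separate summits (75%), against 52.8% of all internal tiles. In the 33 runs with both Taz1 antibodies, it was nearer at 78.8% of summits, 66.7% lay between genes, and 59.1% of those between divergent genes. In the 36 runs of Taz1_GFP tiles above the Rif1_Myc ceiling these shares were 72.2%, 30.6% and 63.6%. These traits were thus not particular to the Taz1_GFP-only runs.

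GC content of the 300-bp tile had a median of 33.2% at the 250 tiles and of 36.3% at all internal tiles. Within UTRs the medians were 31.3% and 32.0%, within long non-coding RNAs 32.7% and 32.3%, and within coding exons 38.3% and 38.7%. Between genes they were 27.3% and 30.7%, so that a gap as wide as the pooled one remained in the intergenic class alone. Separate tiles had a median of 31.7% and flank tiles of 34.0%. After subtraction of a linear trend with GC content, 219 tiles met the rule.

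Matches to the telomere repeat were no more frequent at these runs than elsewhere. The motif GGTTACA, searched on both strands in 1500-bp windows around the summit tile, occurred at 8 of 89 runs (8.99%, interval 3.96 to 16.9) and in 11.5% of such windows at all internal tiles. Another frame of the repeat, TTACAGG, which overlaps the first by 5 bases, occurred at 7 runs (7.87%), against 13.6%. The first motif with its letters in reverse order, ACATTGG, occurred at 13 runs (14.6%), against 20.3%. The whole reference intervals between the genes next to 3 of the 8 runs with GGTTACA were also searched for it. These runs were chosen because their window already held the motif and their summit lay between genes. Matches in their intervals are therefore shown as examples and are no result. The match between zfs1 and SPBPB7E8.01, in an interval of 6775 bp, lay outside the 1500-bp window of that run and is not the one counted above. The matches, with 12 bases on either side and the motif in capitals, read as follows.
arv1/sdh2 (chrI:1894539-1894569, plus strand): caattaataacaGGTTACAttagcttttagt
hsp9/ski7 (chrI:5321595-5321625, minus strand): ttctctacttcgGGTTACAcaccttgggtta
zfs1/SPBPB7E8.01 (chrII:3488930-3488960, plus strand): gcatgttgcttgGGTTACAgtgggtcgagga
In the 250 bases before the 37 genes nearest to separate runs, none held GGTTACA and 1 held TTACAGG, against 2.07% and 1.88% of the 3290 upstream windows.

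The tiles were spread over all chromosomes, with 102 on chromosome I (0.580% of its internal tiles), 118 on chromosome II (0.848%) and 30 on chromosome III (0.404%). The part of chromosome II from 1650000 to 2099999 had the highest share of the 7 intervals, with 27 tiles in 6 runs (1.84%), and the part of chromosome III from 1140000 to 2402999 the lowest, with 7 tiles (0.170%). Runs within 10 kb of each other formed 62 groups, of which 46 held 1 run and 16 held several, with at most 4. Groups of 4 runs lay around SPAC17A2.10C and around iec1 on chromosome I. Of the 250 probe names 129 carry an R and 121 do not, and the meaning of the R is not stated.

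Of 5210 genes other than long non-coding RNAs with measured tiles, 112 (2.15%) had a Taz1_GFP-only tile inside or within 500 bp. Among tRNA genes these were 8 of 119 (6.72%). The median X of these 8 over all tiles within 500 bp ran from 0.48 to 1.14 on Taz1_GFP and from 0.08 to 0.99 on Taz1_wt. The 119 tRNA genes as a class were raised on both arrays, at 0.345 on Taz1_GFP and 0.362 on Taz1_wt. Over all 5210 genes these levels were 0.0015 and −0.00027. No cytosolic ribosomal protein gene of 130 had one, and neither had any listed gene of cell cycle transcription (22), chaperones (16), mating (18), stress response (19) or translation factors (9). On Taz1_wt and Rif1_Myc, which carried the ceilings, ribosomal protein genes were at 0.29 and 0.33 and translation factors at 0.38 and 0.69. Nothing is read from these absences, since the ceilings favoured them there and the other lists are short against a share of 2.15%. Signalling genes were represented by 2 of 26, scr1 and the stress MAP kinase kinase gene wis1, and meiosis genes by 2 of 30, ste11 and num1, a cortical anchor of dynein. The copper regulator cuf1 and the zinc transporter gene zrt1 were 2 of 16 genes of metal and phosphate regulation, and zrt1 was also the single gene of 27 nutrient transporters.

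The remaining lists had 1 gene each. They were pfl3 of 21 flocculation and cell wall genes, eno101 of 16 glycolysis genes, clr4 of 19 heterochromatin genes, pht1 (histone H2A.Z) of 11 histone genes and bqt4, which anchors telomeres at the nuclear envelope, of 15 telomere genes. The 5S rRNA gene SPRRNA.29 of 36 and the small nucleolar RNA gene sno20 of 71 were the others. Their median X on Taz1_GFP over the tiles within 500 bp was 0.22 at pfl3, 0.66 at eno101, 0.16 at clr4, 0.81 at pht1, 0.11 at bqt4, 0.80 at SPRRNA.29 and 1.01 at sno20. At wis1 and num1 it was 0.25 and −0.04, and at ste11, cuf1 and zrt1 it was 0.51, 1.18 and 0.29.

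The rule was also mirrored and applied with the arrays exchanged, as a description. Under the mirrored rule, with X as far below the array median on Taz1_GFP and with the same limits on depletion for Taz1_wt and Rif1_Myc, 28 tiles in 13 runs were found. With the arrays exchanged, 12 tiles in 8 runs reached 0.8 on Taz1_wt and stayed below 0.585 on Taz1_GFP and Rif1_Myc. On Rif1_Myc alone there were 1172 tiles in 266 runs, and on Taz1_L593F alone none. Before any ceiling, 0.8 was reached by 535 internal tiles on Taz1_GFP, 160 on Taz1_wt, 1322 on Rif1_Myc and 2 on Taz1_L593F. These numbers bound the counts, so nothing is read from the absence on Taz1_L593F. The robust standard deviation of X was 0.24 on Taz1_GFP and 0.36 on Rif1_Myc, and the counts on single arrays were not scaled for this. None of the 250 tiles was an outlier spot or below background on any array.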

How the data were processed

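Per the file headers, Agilent Feature Extraction version 11.5.1.1 produced the files, and the deposited processed red and green signals are an intensity after the authors' background subtraction and dye normalization. The deposited scanner files also hold their log10 ratio, and the deposited series matrix holds the same ratio on the log2 scale without centring, as checked on the values. Each array held 41551 non-control probes, with median spot signals from 5232.5 to 12307.5 in red and from 11008 to 26414 in green, and no probe was saturated. The number of arrays, 1 in each group, limits the precision.

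From each array's log2 ratio of red over green its median was subtracted, with no loess or quantile step, and smoothed by a running median of 3 tiles. Tiles with starts within 1 kb formed a run. For each of 7 intervals the array was registered on ASM294v3 by the shift with the highest correlation between whole-cell extract signal and GC content. In 120 of 120 windows of 100 kb the best shift lay within 300 bp of that of its interval, with a median deviation of 50 bp. Sequences, gene names and annotation are RefSeq's.

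The regions, gene lists and motifs were chosen with earlier results of these data known. Genes were named by summit height (15 runs), run length (5), Taz1_L593F (5 highest and 5 lowest), Taz1_wt (3 and 3) and Rif1_Myc (3 highest), plus all list genes with a tile. The design fixed no test, since none is possible with 1 array in a group. Calling and registration were tested on simulated data. Python 3.11.15, pandas 2.3.3, numpy 2.4.6, scipy 1.17.1, R 4.3.3 and limma 3.58.1 were used, and limma served the alternatives with normexp (offset 50) and loess. Other alternatives changed the smoothing, thresholds, scaling, centring, outlier spots, GC content, merging of runs and windows.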

Additional observations from a re-analysis of the deposited data

How the results depend on the processing

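The count of 250 tiles stayed within 1.5 times under 10 of 14 alternatives, that of 89 runs under 11 of 17. Normexp background correction gave 633 tiles in 268 runs, a Taz1_L593F median of 0.062 and 71.3% of summits in intergenic, long non-coding RNA or UTR stretches (83.1% as reported). A Taz1_GFP threshold of 1 gave 104 tiles in 43 runs and a Taz1_L593F median of −0.041. A ceiling of 0.4 gave 145 tiles in 58 runs and a median of −0.012. A ceiling of 0.8 gave 91.3% of summits in these stretches. Without the running median there were 164 runs, and with one over 5 tiles 54 runs and a Taz1_L593F median of −0.012. Separate runs alone, an alternative chosen after seeing the data, were 128 tiles in 44 runs with 95.5% of summits in them. With gene bodies alone 74 genes held a tile instead of 112. The Taz1_L593F median lay between −0.041 and 0.062 over 15 alternatives and the share of summits in these stretches between 71.3% and 95.5% over 14. Loess, scaling to the mean MAD, the series matrix values, leaving out outlier spots, removing a GC fit and no centring left both counts within 1.5 times and both other results within their counting interval. The share of runs with GGTTACA was 6.74% in the narrower window. The cause of the shifts under normexp was not tested. No paired analysis was possible because each group held 1 array. The number of arrays limits every comparison, and no result here has a replicate.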
